A study of Pan troglodytes with 38 samples.

Results

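The values given here are for 10 genes known to respond to glucocorticoids, FKBP5, TSC22D3, ZBTB16, KLF9, SGK1, MT2A, MT1X, CEBPD, DUSP1 and ERRFI1, in post-mortem heart tissue of 38 chimpanzees. They were chosen by symbol, and all 10 were found among the 31373 chimpanzee genes of the count table, of which 18040 carry a symbol. There were 22 females and 16 males. Age at death, known for 34 animals, lay between 10 and 57 years. All libraries form a single group in the labels, with no treatment and no genotype named, so the comparisons are between animals. RNA was extracted in 2018 for 21 animals and in an earlier year for 17, and by the study's sample table the earlier libraries were published ones sequenced again. Extraction year and newly made libraries therefore cannot be told apart. The study's sample table lists HBV or HCV for 7 animals, hepatitis viruses given in laboratory settings. All 7 were extracted in 2018 and 0 came from the Yerkes primate center. The animals were born in captivity and some are first-degree relatives by the study's account, and the tests treat each animal as independent.

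Glucocorticoids such as cortisol enter the cell and bind the glucocorticoid receptor (NR3C1), which is held ready for hormone by the chaperone HSP90 and its partners. The bound receptor moves to the nucleus and changes the transcription of many genes. Some of its targets, such as FKBP5, TSC22D3 and ZBTB16, are widely used as readouts of hormone exposure. Others, such as DUSP1, CEBPD and the metallothioneins, also respond to cytokines, growth factors, metals or tissue handling. In the heart the hormone is known for effects on contraction, ion transport and metabolism. Hormone levels were not analysed here.

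Levels are in CPM, the counts of a gene per 1000000 counts on orthologous exons of the same library. CPM takes no account of transcript length, so values are compared between animals for 1 gene and not between genes. The library totals lay between 14408012 and 81603350, and the lowest count of any of the 10 genes in any animal was 281, for which the counting error is 5.97% of the value. In bulk tissue, fewer cells of a type and less RNA per cell cannot be told apart. The paper calls the samples 537 and Little_R outliers. The summed level of 9 cardiomyocyte markers was 12248 CPM in Little_R, the lowest of all animals, against a median of 98951 CPM and a highest value of 134373 CPM, and all 9 had a median of at least 1 CPM. The share of counts on mitochondrial genes was highest in 537, at 60.1%, with a median of 30.4% over the animals. It was also high in 558 (53.9%), 529 (52.7%) and 4X0339 (51.7%), and was 48.3% in Little_R. Results that rest on 537 and Little_R are given with and without them.

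FKBP5, an HSP90 partner that lowers the affinity of the receptor for hormone, was expressed in every animal. Its level was 127 ± 70.7 CPM (SD, n = 38), with 35.05 CPM in the lowest animal, a median of 111 CPM and 340.5 CPM in the highest. The lowest was Little_R, followed by 295 at 36.7 CPM. The highest was 570, followed by 338 at 283 CPM and 724 at 262 CPM. The highest value was 9.71 times the lowest, and 4 animals were at or above 2 times the median.

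The transcription regulators differed in how widely they varied. TSC22D3, the anti-inflammatory protein also called GILZ, was at 158 ± 109 CPM (SD, n = 38). Its lowest, median and highest values were 45.9, 121 and 594 CPM, and the highest was in 537, well above 346 CPM in 495. ZBTB16, the zinc finger repressor PLZF, was at 146 ± 49.3 CPM (SD, n = 38), and its lowest, median and highest values were 45.3, 141 and 252 CPM. KLF9, a zinc finger factor induced early by the receptor, was at 168 ± 44.3 CPM (SD, n = 38) and ran from 78.8 through a median of 161 to 279 CPM. For both ZBTB16 and KLF9, 0 animals reached 2 times the median, and 4X0339 was the lowest for each of them. CEBPD, a basic leucine zipper factor of the acute phase response, was at 50.9 ± 53.1 CPM (SD, n = 38). It ran from 5.37 CPM in 503 through a median of 30.1 CPM to 208 CPM in 495, with 188 CPM in 537 and 178 CPM in Little_R. The SD of CEBPD was thus about as large as its mean, and 11 animals were at or above 2 times the median.

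Among the signalling genes, SGK1, a kinase that raises ion transport, was at 50.5 ± 31.7 CPM (SD, n = 38), from 11.8 through a median of 42.8 to 152 CPM. DUSP1, a phosphatase that switches off MAP kinases, was at 189 ± 189 CPM (SD, n = 38). It ran from 38.8 through a median of 111 to 825 CPM, with the highest value in Little_R and 642 CPM in 558. With the total of nuclear genes in the gene count table as library size, DUSP1 ran from 34.1 through 95.9 to 524 CPM. In Little_R that total was 22672739, and the total on orthologous exons was 14408012. All other CPM values and ranks given for Little_R rest on the total on orthologous exons. ERRFI1, an inhibitor of ERBB receptor signalling also called MIG6, was at 35.99 ± 96.1 CPM (SD, n = 38), and its median was 17.2 CPM. That spread came from 1 library: ERRFI1 was at 609.8 CPM in 529, against 54.9 CPM in 537, the next highest, and 8.30 CPM in the lowest animal. The same library, 529, was also the highest for SGK1 and KLF9.

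The metallothioneins bind zinc and copper and are encoded by a cluster of near-identical genes, so reads can be split between copies and each value is uncertain to that extent. MT2A was at 131 ± 124 CPM (SD, n = 38), from 20.1 in 554_2 through a median of 81.7 to 583 CPM in 4X0354. MT1X was at 79.4 ± 32.5 CPM (SD, n = 38), from 21.3 through a median of 85.9 to 160.5 CPM. The highest MT2A value was 29.04 times the lowest, against 7.55 times for MT1X.

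**Figure D1:**
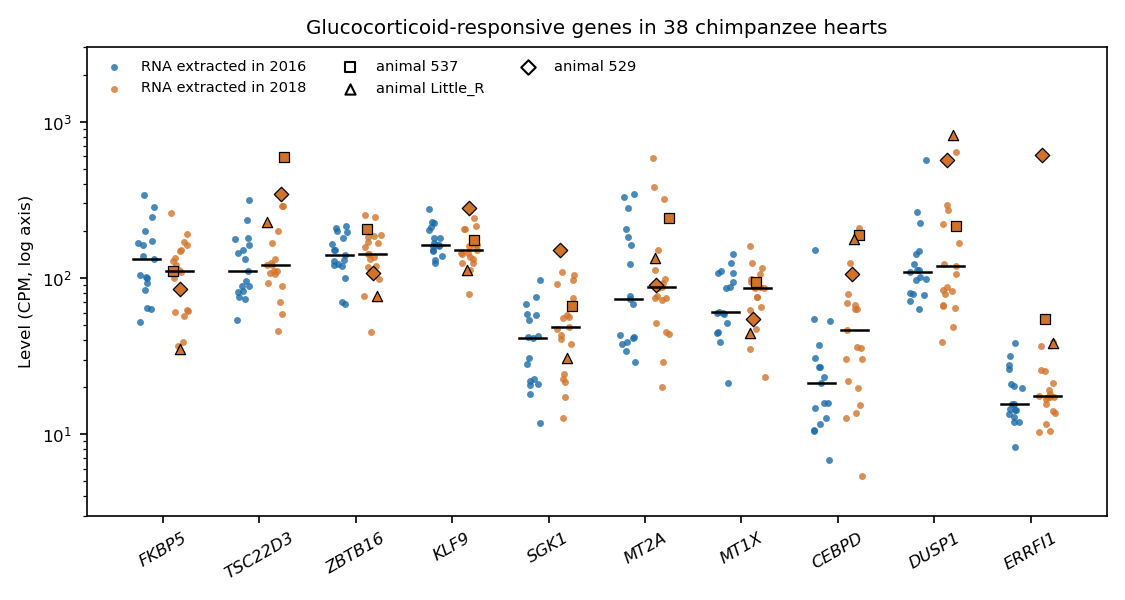
Level of each gene in every animal, in CPM on a log axis, with RNA of the earlier extraction year in blue and of 2018 in orange and a black line at the median of each year. The years overlap for every gene, 529 is alone at 609.8 CPM for ERRFI1, and Little_R is the lowest animal for FKBP5 at 35.05 CPM and the highest for DUSP1 at 825 CPM.

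The study measures variability between individuals as dispersion, which is the natural logarithm of the negative binomial overdispersion of a gene minus its trend on mean expression. A value above 0 means more variability than is usual for a gene of that level. The trend was taken over the 13121 genes that reached 6 CPM in any animal. The SE comes from 1000 redraws of the animals with replacement. Of the 10 genes, 9 were above 0, with a median of 1.29, and among all 13121 expressed genes 44.9% were above 0, with a median of -0.12. Both the lists and these genes were chosen with earlier results known, so the counts are a description.

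CEBPD had a dispersion of 2.09 ± 0.17 (SE over animals, n = 38) and ranked 254 from the top of the 13121 genes. MT2A had 1.93 ± 0.18 at rank 366, and DUSP1 had 1.89 ± 0.20 at rank 395. These 3 genes lay above the third quartile of all genes, 0.57, by several SE, and stayed there in either extraction year alone. SGK1 at 1.29 ± 0.19, TSC22D3 at 1.28 ± 0.23 and FKBP5 at 1.12 ± 0.21 came next, and their values did not differ from each other by more than their SE. MT1X was at 0.68 ± 0.23 and ZBTB16 at 0.30 ± 0.24. KLF9, at -0.35 ± 0.26, was the only member below 0, at rank 7870.

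The value of ERRFI1 depended on 1 animal. Its dispersion was 2.24 with an SE of 1.06 over 38 animals, at rank 185, and 0.43 once 529 was left out and the trend refitted. In the animals of the earlier year alone it was 0.70. For the other 9 genes, leaving out any single animal moved the dispersion by less than the SE of that gene. The dispersion of FKBP5 was 1.64 in the earlier animals and 0.92 in the 2018 animals, and that of MT1X was 1.39 and 0.44. The overdispersion of FKBP5 itself, before the trend is taken off, was 0.262 and 0.2695, and that of MT1X was 0.204 and 0.164. For FKBP5 the fall in dispersion thus goes with the trend over all genes and not with its own overdispersion. The difference between years was not tested.

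**Figure D2:**
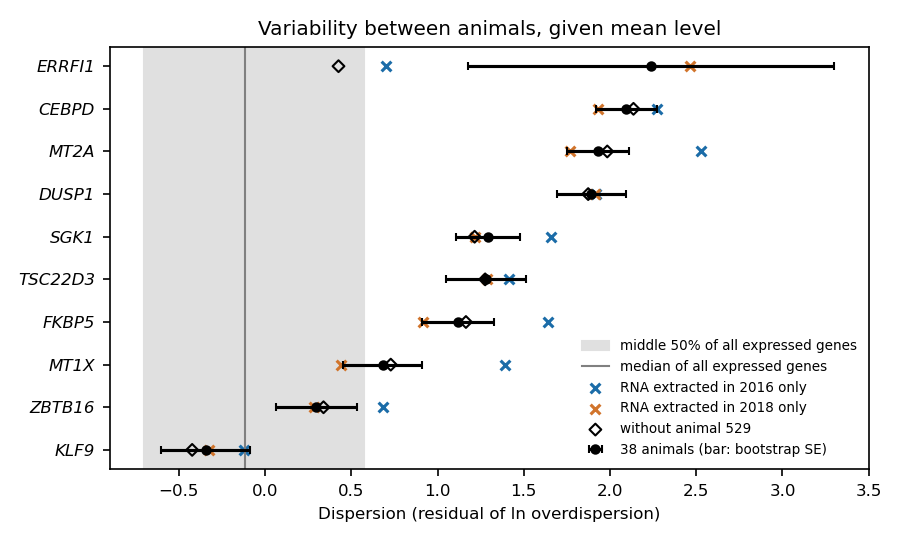
Dispersion of each gene (horizontal axis, residual of ln overdispersion) over 38 animals with its SE, in each extraction year alone and without 529, beside the middle 50% and the median of all 13121 expressed genes. CEBPD, MT2A and DUSP1 lie to the right of the grey band in every setting drawn, and ERRFI1 drops from 2.24 to 0.43 without 529.

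Other lists of the pathway were described the same way. Of the genes that supply hormone, receptor and chaperones, 8 of 13 expressed genes had a dispersion above 0 (median 0.45), and of 28 other glucocorticoid targets 25 did (median 1.17). The immediate early genes, the first transcription factors to be switched on by a stimulus, had 15 of 15 above 0 with a median of 2.23. Acute phase and inflammation genes had 11 of 13 (median 2.22), MAPK phosphatases and ERBB feedback genes 13 of 15 (median 0.70), and other metallothioneins and zinc transporters 9 of 10 (median 0.51). Relatives and targets of SGK1 had 4 of 8 (median -0.01). Markers of cell types also varied widely, with 8 of 9 cardiomyocyte (median 0.68), 6 of 6 endothelial (0.65), 6 of 6 fibroblast (2.08), 6 of 6 macrophage (1.69) and 4 of 4 neutrophil markers (1.95) above 0.

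The next comparison asked whether the genes differ with the technical and biological covariates of the animals. Between extraction years, 0 of 10 members passed edgeR's quasi-likelihood test at an adjusted p of 0.05 (Benjamini-Hochberg over all 16000 genes), where 16.5% of all genes tested passed, 12.2% with higher and 4.29% with lower levels in 2018. At an unadjusted p under 0.05 there were 2 of the 10 members, CEBPD and ERRFI1, and 4943 of all 16000 genes. The median log2 fold change of the members, 2018 over the earlier year, was 0.18 and that of all genes was 0.02.

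CEBPD came nearest to the threshold. In the earlier year its lowest, median and highest values were 6.84, 21.1 and 149.7 CPM, and in 2018 they were 5.37, 46.2 and 208 CPM, so the years overlapped widely. Its log2 fold change, 2018 over earlier, was 1.06 (SE 0.38, adjusted p = 0.0516). With DESeq2 it passed (adjusted p = 0.0222), and so it did with RIN as a covariate in edgeR (adjusted p = 0.0398). It also passed with 1 animal left out for 12 of the 38 animals, namely 295, 338, 476, 4X0095, 4X0267, 4X0339, 4X0357, 4X0550, 4x523, 503, 554_2 and 570, and without 570 the value was 1.39 (adjusted p = 0.00619). Without 537 and Little_R it was 0.81 (adjusted p = 0.150). With the leading principal component of the log2 CPM values in the model it was 0.27 (adjusted p = 0.581).

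FKBP5 ran from 51.8 through 132 to 340.5 CPM in the earlier year and from 35.05 through 111 to 262 CPM in 2018, with a log2 fold change of -0.43 (SE 0.23, adjusted p = 0.192). DUSP1 had 0.63 (SE 0.34, adjusted p = 0.203), and ERRFI1 had 0.95 (SE 0.45, adjusted p = 0.141), which was 0.18 without 529. ZBTB16 had -0.05 (SE 0.16) and KLF9 -0.18 (SE 0.12). SGK1 had 0.40 (SE 0.27), TSC22D3 0.31 (SE 0.23), MT2A -0.14 (SE 0.39) and MT1X 0.04 (SE 0.21). None of these 9 genes passed in edgeR with any single animal left out.

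Some genes of the other lists passed between years, where 16.5% of all genes tested did. Cell type markers aside, only the list of immediate early genes had a larger share of calls than that. The other lists had a smaller share. Among immediate early genes 5 of 15 were higher in 2018 and 0 were lower, with a median log2 fold change of 1.07. They included KLF2, a flow-responsive endothelial factor, at 1.10 (SE 0.24, adjusted p = 0.00149), FOSB, an AP-1 subunit, at 3.18 (SE 0.82, adjusted p = 0.00598), and ATF3, a stress-induced repressor, at 2.15 (SE 0.61, adjusted p = 0.0122). ATF3 no longer passed without 537 and Little_R (1.51, adjusted p = 0.0517) or without 529 (1.66, adjusted p = 0.0517), and neither ATF3 (0.74, adjusted p = 0.376) nor FOSB (1.10, adjusted p = 0.3997) passed in limma-voom. Of 27 other glucocorticoid targets tested, BCL6, a transcriptional repressor, was higher at 0.90 (SE 0.29, adjusted p = 0.0299) and FOXO3, a forkhead factor, was lower at -0.58 (SE 0.17, adjusted p = 0.0167). BCL6 did not pass without 537 and Little_R (0.62, adjusted p = 0.118) or in limma-voom (0.71, adjusted p = 0.0743).

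HSP90AA1, the stress-inducible HSP90 that holds the receptor, was the only one of 14 receptor, hormone and chaperone genes to pass between years (1.51, SE 0.50, adjusted p = 0.0309). Its lowest, median and highest levels were 698, 1346 and 58328 CPM. The highest was in Little_R, and the next was 6718 CPM in 495. Without 537 and Little_R its log2 fold change was 0.48 (adjusted p = 0.224). The receptor gene NR3C1 was between 41.97 and 144 CPM with a median of 65.1 CPM. Of 13 acute phase and inflammation genes only CXCL2, a chemokine for neutrophils, passed (1.88, SE 0.62, adjusted p = 0.0332). It did not pass without 537 and Little_R (1.59, adjusted p = 0.102) or without 529 (1.37, adjusted p = 0.0553). Of 10 metallothionein and zinc genes, 15 MAPK phosphatase and ERBB genes and 10 SGK genes 0 passed in edgeR, with 0, 3 and 0 at an unadjusted p under 0.05. Some markers of other cell types also passed between years. Of the macrophage markers 5 of 6 were lower in 2018, and the median of their sum was 152 CPM in the earlier year and 71.1 CPM in 2018. Of the adipocyte markers 2 of 4 tested were higher in 2018. So were 1 of 6 endothelial and 1 of 5 smooth muscle and pericyte markers, where 16.5% of all genes passed in either direction. In the endothelial list 3 of 6 had a positive log2 fold change (median -0.04). In the smooth muscle and pericyte list 1 of 5 did (median -0.16). The part of these cell types in the values above was not tested.

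No member passed for sex, RNA integrity or age. Males and females differed in 37 of 16000 genes, which is 0.231%, and in 0 of 10 members. At an unadjusted p under 0.05 in edgeR there were 2 members and 1361 of all 16000 genes. DESeq2 and limma-voom called 0 members. The largest value of a member was that of ERRFI1 (male over female 1.15, SE 0.44, adjusted p = 0.414), which was -0.04 without 529. DUSP1 had 0.72 (SE 0.34, adjusted p = 0.560) and FKBP5 -0.35 (SE 0.23, adjusted p = 0.727). The count over all genes was 23 without 549.

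RNA integrity, scored as RIN, was between 2.5 and 8.4. Over all 16761 genes tested, 0% passed for RIN in edgeR, with 2306 at an unadjusted p under 0.05, while DESeq2 called 171 and limma-voom 0. DUSP1 was the only member at an unadjusted p under 0.05, with a slope of 0.32 log2 per RIN unit (SE 0.10, p = 0.00201, adjusted p = 0.148 in edgeR), and 0.25 without 537 and Little_R. The slope of FKBP5 on RIN was -0.03 (SE 0.08). For age, 0% of 16492 genes passed in edgeR, with 1222 at an unadjusted p under 0.05, 5 calls in DESeq2 and 0 in limma-voom. CEBPD had a slope of -0.35 log2 per decade (SE 0.16, p = 0.0333, adjusted p = 0.657) and FKBP5 -0.19 (SE 0.09, p = 0.0523, adjusted p = 0.657). All 13 acute phase and inflammation genes tested had a negative slope on age, with a median of -0.20, and 0 of them passed, with 2 at an unadjusted p under 0.05 in edgeR. The median slope of all genes was -0.01. The 6 macrophage markers (median -0.25) and the 4 neutrophil markers (median -0.47) also all had negative slopes. So did the 6 endothelial, 4 Schwann cell and 2 erythrocyte markers tested. All 9 cardiomyocyte and all 5 adipocyte markers had positive slopes, as did 7406 of all 16492 genes. The part of these cell types in the values was not tested.

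FKBP5 is often read as a gauge of hormone exposure, and the next question was which genes vary together with it from animal to animal. Each gene was fitted on the log2 CPM of FKBP5 with extraction year and sex in the model, so a slope of 1 means that the gene doubles when FKBP5 doubles. Of 16760 genes, 138 passed, or 0.823%, with 67 positive and 71 negative slopes. Without TMM scaling of the libraries there were 286 positive and 58 negative, and with FKBP5 itself scaled by TMM 83 positive and 216 negative. Of the 9 other members 1 passed. An unadjusted p under 0.05 in edgeR was found for 6 of these 9 members and for 2157 of the 16760 genes. The median slope was 0.27 for the members and 0.00 for all genes.

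ZBTB16 was the member that passed, with a slope of 0.47 (SE 0.08, adjusted p = 0.00245), the 9th smallest p of all genes. The lowest animals for FKBP5, Little_R, 295 and 4X0339, had 76.6, 76.5 and 45.3 CPM of ZBTB16. The highest, 570 and 338, had 199 and 196 CPM. The call was kept in 38 of 38 fits with 1 animal left out (adjusted p between 0.000649 and 0.00769), and the slope was 0.44 without 537 and Little_R (adjusted p = 0.00303). In the earlier animals alone the slope was 0.43 (SE 0.13, adjusted p = 0.138) and in the 2018 animals 0.49 (SE 0.12, adjusted p = 0.215). It was 0.41 in the 21 animals from the Yerkes primate center alone (adjusted p = 0.0606) and 0.43 without the 7 animals listed with HBV or HCV (adjusted p = 0.0146). So the size was similar in each subset, where the smaller sets gave no call.

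CEBPD had the steepest slope of the members, 0.61 (SE 0.20, adjusted p = 0.148), and it moved with single libraries. Over the 38 edgeR fits with 1 animal left out the slope ran from 0.45 to 1.16. The highest adjusted p of these fits, 0.421, was found without 570. That animal had the most FKBP5, and its CEBPD was at 149.7 CPM. By CPM on the orthologous exon total, Little_R was the lowest animal for FKBP5 and the third highest for CEBPD. Its rank for CEBPD can depend on the total used. Without Little_R the slope was 1.16 (SE 0.18, adjusted p = 0.000379). Without both 537 and Little_R it was 1.13 (SE 0.17, adjusted p = 0.000237). In the earlier animals alone, which hold neither, the slope was 1.08 (SE 0.21, adjusted p = 0.0350), and in the 2018 animals 0.29 (SE 0.30, adjusted p = 0.989). It also passed in limma-voom (0.97, adjusted p = 0.0127), in the Yerkes animals alone (1.199, adjusted p = 0.0310) and with the leading principal component in the model (0.75, adjusted p = 0.00108). The gene next to CEBPD in the RefSeq annotation, SPIDR, was at a median of 66.3 CPM, and across the 38 animals its log2 CPM had r = 0.92 with that of CEBPD. Whether reads of the 2 genes were kept apart was not tested.

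TSC22D3 had a slope of 0.34 (SE 0.15, adjusted p = 0.308), and 0.48 (SE 0.14, adjusted p = 0.0437) without 537 and Little_R. MT2A had 0.57 (SE 0.21, adjusted p = 0.198), and 0.70 without these animals (SE 0.22, adjusted p = 0.0546). KLF9 had 0.16 (SE 0.08, adjusted p = 0.369), MT1X 0.18 (SE 0.14) and ERRFI1 0.27 (SE 0.30). DUSP1 had a negative slope, -0.45 (SE 0.20, adjusted p = 0.304), which was -0.15 without Little_R. SGK1 was at -0.10 (SE 0.18). Without 537 and Little_R 876 of 16601 genes passed, or 5.28%, of which 3 were members. The count over all genes was 803 without Little_R alone, 88 without 495 and 70 without 570, the animal with the most FKBP5.

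**Figure D3:**
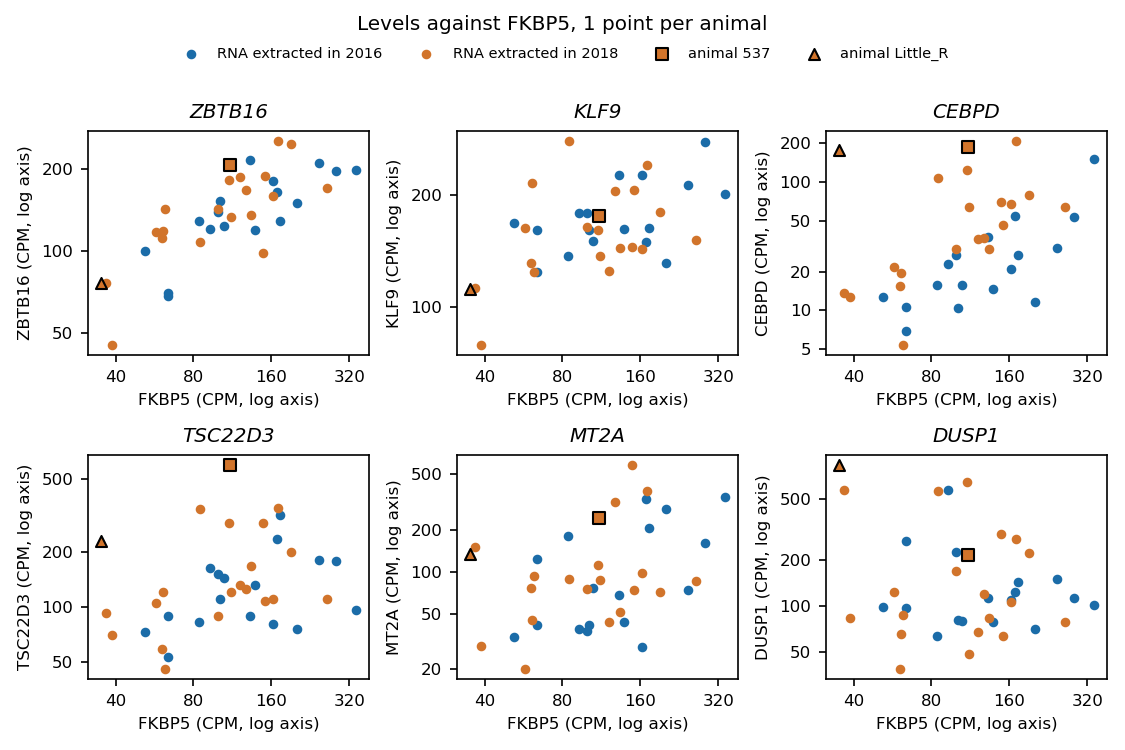
Level of 6 genes against FKBP5, both in CPM on log axes, with 1 point per animal coloured by extraction year. ZBTB16 rises along with FKBP5 in both years. Little_R, at 35.05 CPM of FKBP5, sits at 178 CPM of CEBPD, apart from the other animals with little FKBP5. For DUSP1 Little_R sits at 825 CPM, and 295, at 36.7 CPM of FKBP5, is also high at 565 CPM.

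**Figure D4:**
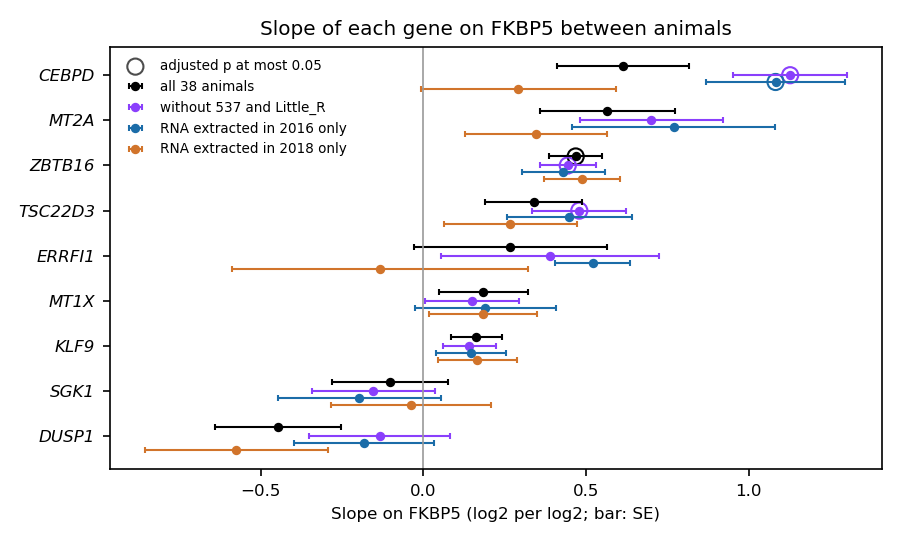
Slope of each gene on FKBP5 (log2 per log2, bars are SE) in all animals, without 537 and Little_R, and in each extraction year, with a ring where the adjusted p was at most 0.05. ZBTB16 keeps a slope between 0.43 and 0.49 in the 4 sets, and CEBPD moves from 0.61 to 1.13 without 537 and Little_R.

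The slopes were compared between the extraction years with an interaction term. Of 17255 genes, 2 passed (0.0116%) and 0 members did, with 958 genes at an unadjusted p under 0.05, 22 calls in DESeq2 and 0 in limma-voom. ZBTB16 had a difference of slopes, 2018 minus earlier, of 0.05 (SE 0.16, adjusted p = 0.9996). CEBPD had -0.82 (SE 0.40, adjusted p = 0.895), which was 0.04 without 537 and Little_R, and ERRFI1 had -0.94 (SE 0.57, adjusted p = 0.958). One of the genes that passed was the cytokine IL6, of the acute phase list, at -5.75 (SE 1.06, adjusted p = 0.0376), which ran from 0.0624 through a median of 0.505 to 160.8 CPM and was highest in 570. Without 537 and Little_R 0 genes passed, with 613 at an unadjusted p under 0.05.

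Other genes of the pathway were read from the same fit. Of 28 other glucocorticoid targets, 2 had positive slopes that passed and 0 had negative ones. They were ANGPTL4, an inhibitor of lipoprotein lipase (1.34, SE 0.29, adjusted p = 0.0168), and KLF15, a regulator of heart metabolism (0.47, SE 0.12, adjusted p = 0.0462), which did not pass without the 7 animals listed with HBV or HCV (0.44, adjusted p = 0.135). ANGPTL4 ran from 0.843 through a median of 9.99 to 165 CPM, and KLF15 from 8.82 through 43.9 to 110 CPM. The acute phase factor STAT3 passed (0.56, SE 0.11, adjusted p = 0.00689), 1 of 13 on its list, and ran from 113 through 266 to 1368 CPM in 570. The metallothionein MT1A passed (2.20, SE 0.49, adjusted p = 0.0193), 1 of 10, at a median of 0.419 CPM and a highest value of 89.8 CPM in 570.

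Negative slopes that passed were found for ABCB1, a pump that exports steroids (-1.09, SE 0.24, adjusted p = 0.0180), and for NR4A1, an immediate early nuclear receptor (-1.13, SE 0.29, adjusted p = 0.0466). Little_R was the highest animal for both, at 156 CPM of ABCB1 and 2065 CPM of NR4A1. Without 537 and Little_R the slope of ABCB1 was -0.19 (adjusted p = 0.681) and that of NR4A1 was -0.75 (adjusted p = 0.185). Of 15 MAPK phosphatase and ERBB feedback genes 0 passed, with 0 at an unadjusted p under 0.05 in edgeR.

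The genes most like FKBP5 were then found by the Pearson correlation of log2 CPM after removing extraction year and sex, over 38 animals and 13120 other genes. These genes share library and depth, and no p is given. The median r with FKBP5 over all genes was 0.14. RFFL, a ubiquitin ligase, was first at r = 0.81, and ZBTB16 was second at r = 0.78. RETN, the secreted protein resistin, followed at 0.74, then ZBTB24 at 0.73, TXNRD1, a thioredoxin reductase, at 0.72 and F2RL3, a thrombin receptor of platelets, at 0.72. Seen from ZBTB16, FKBP5 was first of the 13120 genes and KLF9 was at rank 9.

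Among the members, 38 of 45 pairs had a positive r of log2 CPM and the median was 0.32. Over all pairs of the 13121 expressed genes 57.4% were positive and the median was 0.07. With TMM scaling the median of the members was 0.18 and 34 pairs were positive, and in the authors' normalized matrix, without TSC22D3, it was 0.15. FKBP5 with ZBTB16 had r = 0.77 (Spearman's rho 0.74), 0.80 in the earlier year and 0.78 in 2018, and r between 0.74 and 0.79 with any animal left out. Without the 2 animals farthest from the median of FKBP5 it was 0.75. In the normalized matrix of the authors, which has 37 animals, it was 0.45. ZBTB16 with KLF9 had r = 0.62 and FKBP5 with KLF9 0.52.

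TSC22D3 and CEBPD had r = 0.74, and CEBPD was at rank 197 of the 13120 genes seen from TSC22D3. TSC22D3 had r = 0.63 with ERRFI1 and 0.55 with DUSP1, but many genes were as close to it: ERRFI1 was at rank 1534 and DUSP1 at rank 2722. CEBPD had r = 0.58 with ERRFI1, which was at rank 1967 seen from CEBPD. The median r over all genes was 0.23 for TSC22D3 and 0.22 for CEBPD. TSC22D3 with CEBPD was 0.45 in the earlier year and 0.87 in 2018, and 0.70 without 537 and Little_R. MT2A and MT1X had r = 0.72, which the sharing of reads between near-identical copies could affect. After removing year and sex, MT2A was the first of 13120 genes seen from MT1X, and MT1X was the fifth seen from MT2A. FKBP5 had r = -0.20 with DUSP1 and -0.03 with SGK1, and DUSP1 with SGK1 had 0.49.

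**Figure D5:**
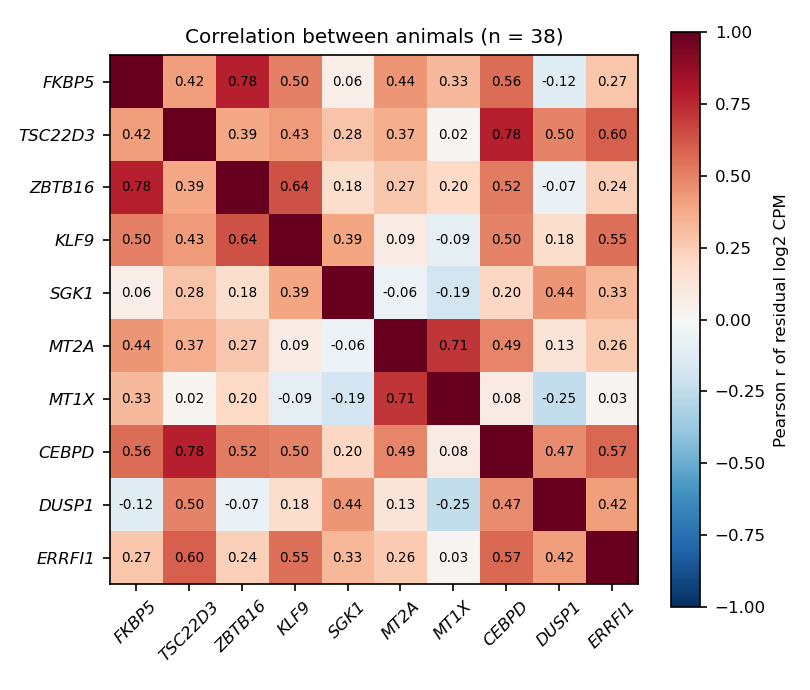
Pearson r between animals of log2 CPM after removing extraction year and sex, for each pair of the 10 genes, on a colour scale from -1 to 1. FKBP5 and ZBTB16 reach 0.78, TSC22D3 and CEBPD 0.78 and MT2A and MT1X 0.71, while DUSP1 is at -0.12 with FKBP5.

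The levels were finally set beside the summed levels of marker lists for other cell types. Across the 38 animals FKBP5 had r = 0.54 with 4 neutrophil markers, whose sum ran from 3.72 through a median of 37.3 to 693 CPM, and r = 0.49 with 6 macrophage markers, whose sum ran from 28.04 through 100.3 to 743 CPM. Without 537 and Little_R these were 0.61 and 0.52. The macrophage marker CD163, itself a glucocorticoid-induced gene, had a slope on FKBP5 of 0.98 (SE 0.19, adjusted p = 0.00729), the only 1 of these 10 markers to pass. ZBTB16 had 0.39 with the neutrophil and 0.36 with the macrophage sum, and CEBPD had 0.57 with the neutrophil sum. Of the neutrophil markers found 3 of 4, and of the macrophage markers 6 of 6, had a median of at least 1 CPM.

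TSC22D3, CEBPD, DUSP1 and ERRFI1 had negative r with the cardiomyocyte sum, at -0.62, -0.74, -0.57 and -0.55. In the earlier year these were -0.22, -0.51, -0.15 and -0.82, and in 2018 they were -0.72, -0.81, -0.64 and -0.48, so for TSC22D3 and DUSP1 the relation was weak in the earlier year. TSC22D3 had r = 0.69 with 6 endothelial markers (sum from 805 through 1352 to 4824 CPM) and DUSP1 had r = 0.70 with 6 fibroblast markers (sum from 634 through 1741 to 10477 CPM). Without 537 and Little_R these were 0.61 and 0.66. Other sums came close over the 38 animals. TSC22D3 had 0.67 with the fibroblast and 0.57 with the smooth muscle and pericyte sum, and DUSP1 had 0.60 with the latter. TSC22D3 also had r = -0.61 with the log2 library total, which was 0.04 in the earlier year and -0.75 in 2018. CEBPD had -0.55 (0.06 in the earlier year and -0.70 in 2018). DUSP1 had -0.44 (0.30 and -0.56) and ERRFI1 -0.43 (-0.25 and -0.44). The other members had r between -0.23 and 0.02 over the 38 animals. FKBP5 and ZBTB16 had r = -0.06 and -0.13 with the cardiomyocyte sum, though these were -0.47 and -0.36 without 537 and Little_R. The part of cell type make-up and depth in the levels was not tested.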

How the data were processed

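RNA-seq of polyA RNA from post-mortem heart tissue of 38 chimpanzees was analysed. The authors aligned the reads to Pan_tro_3.0 with STAR 2.6.1b and deposited raw counts per Ensembl gene (STAR gene counts, strand setting not stated) and raw counts over human-chimpanzee orthologous exons (featureCounts 1.6.3, per the file headers). The authors also deposited a normalized matrix of 13545 genes in 37 animals, whose score is log CPM standardized by gene and mapped to a normal distribution; it holds 9 of the 10 genes and lacks TSC22D3. The human table was not analysed here. Counted over all the deposited tables, human and chimpanzee, 52 per-sample columns were not used. Extraction year, sex, age, RIN, center and virus notes come from the study's sample table.

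CPM used the orthologous exon total as library size. Gene counts were tested with edgeR's quasi-likelihood test (edgeR 4.0.16, R 4.3.3, TMM, filterByExpr) with extraction year and sex as terms and Benjamini-Hochberg adjustment over all genes at 0.05. DESeq2 1.42.0 and limma-voom (limma 3.58.1) were alternatives, as were other scalings, filters, covariates and subsets of animals. The fits without 529, without the animals listed with HBV or HCV, with each animal left out, with the mitochondrial share and with FKBP5 scaled by TMM were added after seeing the data. Correlations used log2(CPM + 0.5). Dispersion was the residual of ln overdispersion from a LOESS trend (degree 1, span 0.75).

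The 10 genes and all lists were chosen with earlier results of these data known. Named genes are the 10, up to 3 genes of each list with the smallest p per comparison, and the 5 genes most correlated with FKBP5; genes named outside this rule (SPIDR, NR3C1) were chosen after their values were seen. A result of the slopes on FKBP5 that the rule names is not reported here. Of 175 other list genes, 5 were not matched by symbol (TXNIP, MT3, JUN, IER3 and FCGR3B). The annotation of neighbouring genes is from RefSeq and of another assembly, so no coordinates are given. On simulated data with a known log2 change of 1 between extraction years, 140 of 200 changed genes were recovered among 15931 tested, with 3 false calls. For slopes on FKBP5 of 0.5 and 1, 99 of 197 and 171 of 200 were recovered among 16637 tested, with 2 false calls.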

Additional observations from a re-analysis of the deposited data

How the results depend on the processing

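No paired analysis was possible because the samples form a single group. Between extraction years the number of the 10 genes that passed was 1 in place of 0 with DESeq2 and with RIN as a covariate, and 0 to 1 with an animal left out. Over all genes 1.64% passed in the Yerkes animals alone, against 16.5%. With the first principal component as a covariate the year split was 1274 higher and 965 lower, against 1959 and 687. For sex DESeq2 called 87 genes, and leaving out an animal gave 23 to 51. For RIN the counts were 171 with DESeq2, 2 without a filter, 2 without TMM and 88 with the principal component, against 0. For age they were 5 with DESeq2 and 6 without a filter, against 0.

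For the slope on FKBP5, 383 genes passed with DESeq2, 876 without 537 and Little_R, 344 without TMM, 492 with the principal component, 53 in the earlier year alone, 0 in 2018 alone (1158 at an unadjusted p under 0.05 in edgeR), 299 with FKBP5 scaled by TMM, and 70 to 803 with an animal left out. The members that passed were 2 in limma-voom, 2 with the principal component, 2 with the mitochondrial share, 3 without 537 and Little_R, 0 in 2018 alone, and 1 to 2 with an animal left out. For the difference of slopes between years, 22 genes passed in DESeq2, 0 in limma-voom and 0 without 537 and Little_R.

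Signs turned only in values that did not pass. For extraction year these were TSC22D3 at -0.19 and DUSP1 at -0.077 with the principal component, ZBTB16 at 0.0082 without TMM and 0.0076 in Yerkes animals, and MT2A at 0.089 in limma-voom and 0.068 in Yerkes animals. With an animal left out, ZBTB16 ran from -0.11 to 0.011, MT2A from -0.27 to 0.045 and MT1X from -0.039 to 0.11. MT1X was -0.13 without the animals listed with HBV or HCV. For sex, ERRFI1 was -0.0436 without 529 and ran from -0.0436 to 1.24 with an animal left out, CEBPD from -0.29 to 0.12 and KLF9 from -0.074 to 0.032. For the slope on FKBP5, MT1X was -0.00445 in Yerkes animals, ERRFI1 was -0.13 in 2018 alone, and SGK1 ran from -0.16 to 0.0069 with an animal left out. The difference of slopes of CEBPD was 0.040 without 537 and Little_R. The causes were not tested.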

Other observations

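The genes closest to each of the other members were found in the same way as those for FKBP5, by r of log2 CPM after removing extraction year and sex over 38 animals. They are named outside the rule for named genes, with their values known. DUSP1 stood closest to the immediate early genes FOS (0.83) and IER2 (0.79). SGK1 stood closest to ID1 (0.77), an inhibitor of differentiation, and to the endothelial factor SOX18 (0.71). TSC22D3 stood closest to DDIT4 (0.86), an mTOR inhibitor that also responds to glucocorticoids. ZBTB16 had FKBP5 first, then POR (0.70), the electron donor of cytochrome P450 enzymes, and KLF15 (0.67). KLF9 stood closest to MXI1 (0.70), then CDC14B (0.68), followed by GLUL (0.68), a glutamine synthetase and known glucocorticoid target. MT2A stood closest to the other metallothioneins MT1G (0.84), MT1M (0.78) and MT1F (0.76), whose sequences are much alike. Their levels were low, with medians of 0.579, 2.61 and 1.84 CPM, and MT1G was at 0 CPM in its lowest animal. The part of shared reads in these r values was not tested. CEBPD was closest to its neighbour SPIDR (0.94), followed by NNMT (0.85). ERRFI1 was closest to UAP1 (0.87), which had a median of 45.9 CPM and a highest value of 322 CPM. ERRFI1 stood far above all other animals in 529, at 609.8 CPM, and this r was not computed without 529.

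In Little_R the HSP90 partner FKBP4 was at 6242 CPM, against 382 CPM in 495, the next highest animal, and NR3C1 was at 144 CPM, also its highest value. These values stood beside the lowest FKBP5 of all animals.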
